A study of Mus musculus with 8 samples.

Results

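Transcripts of 9 chemokine receptor genes, Cxcr3, Cxcr6, Ccr2, Ccr4, Ccr8, Ccr6, Ccr9, Ccr7 and Cxcr4, were measured by RNA sequencing in CD4 T cells sorted from the spleens of mice. The 9 were taken as a list of gene symbols and matched to the Ensembl identifiers of the count table. They are 9 of its 54837 genes, and all 9 were among the 18851 genes with enough counts to be tested. GFPhi (n = 3) were TIM-3+, FLAG+, GFP+ and FoxP3+ cells of mice with FSF-TIM-3 in addition to Foxp3-eGFP-Cre-ERT2. GFPLow (n = 3) were TIM-3+ and FLAG+ but GFP- and FoxP3- cells of that same genotype. WT (n = 2) were GFP+, FoxP3+ cells without TIM-3 and FLAG, from mice with Foxp3-eGFP-Cre-ERT2 alone. All mice, WT included, had received tamoxifen on 5 consecutive days. The sorter delivered cells into lysis buffer, cDNA was made with SMART-Seq HT, a kit for small amounts of RNA, and sequencing libraries with Nextera XT. In these mice the Foxp3 gene, which defines regulatory T cells (Tregs), drives a Cre recombinase that tamoxifen switches on, and TIM-3 is an inhibitory receptor encoded by Havcr2. GFPhi and WT differ in the transgene and in the TIM-3 and FLAG gate at once, and GFPhi and GFPLow differ in the GFP and FoxP3 gate. GFPLow and WT differ in the transgene and in both gates at once, so FoxP3- cells are compared with FoxP3+ cells there. The effect of the transgene and that of the gates therefore cannot be told apart. The labels do not say that libraries of a group came from separate mice, and p-values measure the spread between these samples. In sorted bulk samples, fewer cells that carry a receptor and less of its RNA per cell cannot be told apart.

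Chemokine receptors are membrane-spanning receptors that couple to inhibitory G proteins and steer cells along gradients of small secreted proteins, the chemokines. Naive and central memory T cells use CCR7 to enter lymph nodes and the T cell zone of the spleen. Cells primed toward type 1 responses gain CXCR3 and CXCR6, and Tregs of non-lymphoid tissues are known for CCR8, CCR4 and CCR6. CCR2 guides cells to inflamed sites, CCR9 to the small intestine, and CXCR4 holds cells near CXCL12 in bone marrow and lymphoid tissue.

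The libraries held 44446215 to 55388756 counts. The sort markers followed the labels: Foxp3 was at 60.2, 68.1 and 81.0 CPM (a library's counts scaled to a common total by the trimmed mean of M-values, TMM) in GFPhi, 2.45, 1.97 and 4.82 CPM in GFPLow, and 41.7 and 63.2 CPM in WT. Havcr2 was at 1525, 1077 and 1791 CPM in GFPhi, 260.1, 127 and 538 CPM in GFPLow, and 0.876 and 0.172 CPM in WT, so GFPLow held less of it than GFPhi although both were gated as TIM-3+. WT library 1 stood apart from the other 7 libraries. It had 18599 genes with counts against 21248 to 22185 in the others, 6.54% mitochondrial counts against 2.35% to 2.78%, and a Cd4 level of 109 CPM against 288 to 436 CPM. WT library 2 held both Xist (242 CPM) and the Y-linked Ddx3y (6.16 CPM), whereas Xist was at 237 CPM in GFPhi library 3 and 184 CPM in GFPLow library 3, and was at most 0.263 CPM in the other 5. The differences of the 9 receptors from WT, the counts of calls among them, and the called differences from WT of other genes given with values are therefore also given without WT library 1. Leaving out WT library 2 rests the WT group on library 1, and the test then called 40.1% of genes in GFPhi against WT and 43.9% in GFPLow against WT.

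Differences are log2 fold changes from 1 edgeR quasi-likelihood model of all genes, given ± the standard error (SE), with p adjusted by Benjamini-Hochberg over the 18851 genes tested and a threshold of 0.05. Of the 9 receptors 3 passed in GFPLow against WT: Cxcr6 and Cxcr3 rose and Ccr8 fell, beside 3.3% of all genes that passed in that comparison (1.08% higher and 2.23% lower). In GFPhi against GFPLow, 2 of the 9 passed, Ccr8 higher and Cxcr6 lower in GFPhi, beside 2.26% of all genes (1.63% higher and 0.626% lower). In GFPhi against WT, 0 of the 9 passed, beside 0% of all genes. Without WT library 1 the counts were 6 of 9 in GFPLow against WT (5.88% of all genes), 5 of 9 in GFPhi against GFPLow (9.66%) and 0 of 9 in GFPhi against WT (0%). Without WT library 2 they were 7 of 9 in GFPLow against WT (43.9% of all genes), 5 of 9 in GFPhi against GFPLow (9.64%) and 5 of 9 in GFPhi against WT (40.1%). Ccr8 was the 1 receptor called in GFPhi against GFPLow without GFPhi library 1 (0.565% of all genes), GFPhi library 3 (0.955%), GFPLow library 2 (0.794%) or GFPLow library 3 (0.849%). The fit of the 6 GFPhi and GFPLow libraries alone also called 5 of 9 between them (12.3% of all genes): Ccr8 and Ccr6 were higher and Cxcr6, Cxcr3 and Ccr7 lower in GFPhi.

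**Figure D1:**
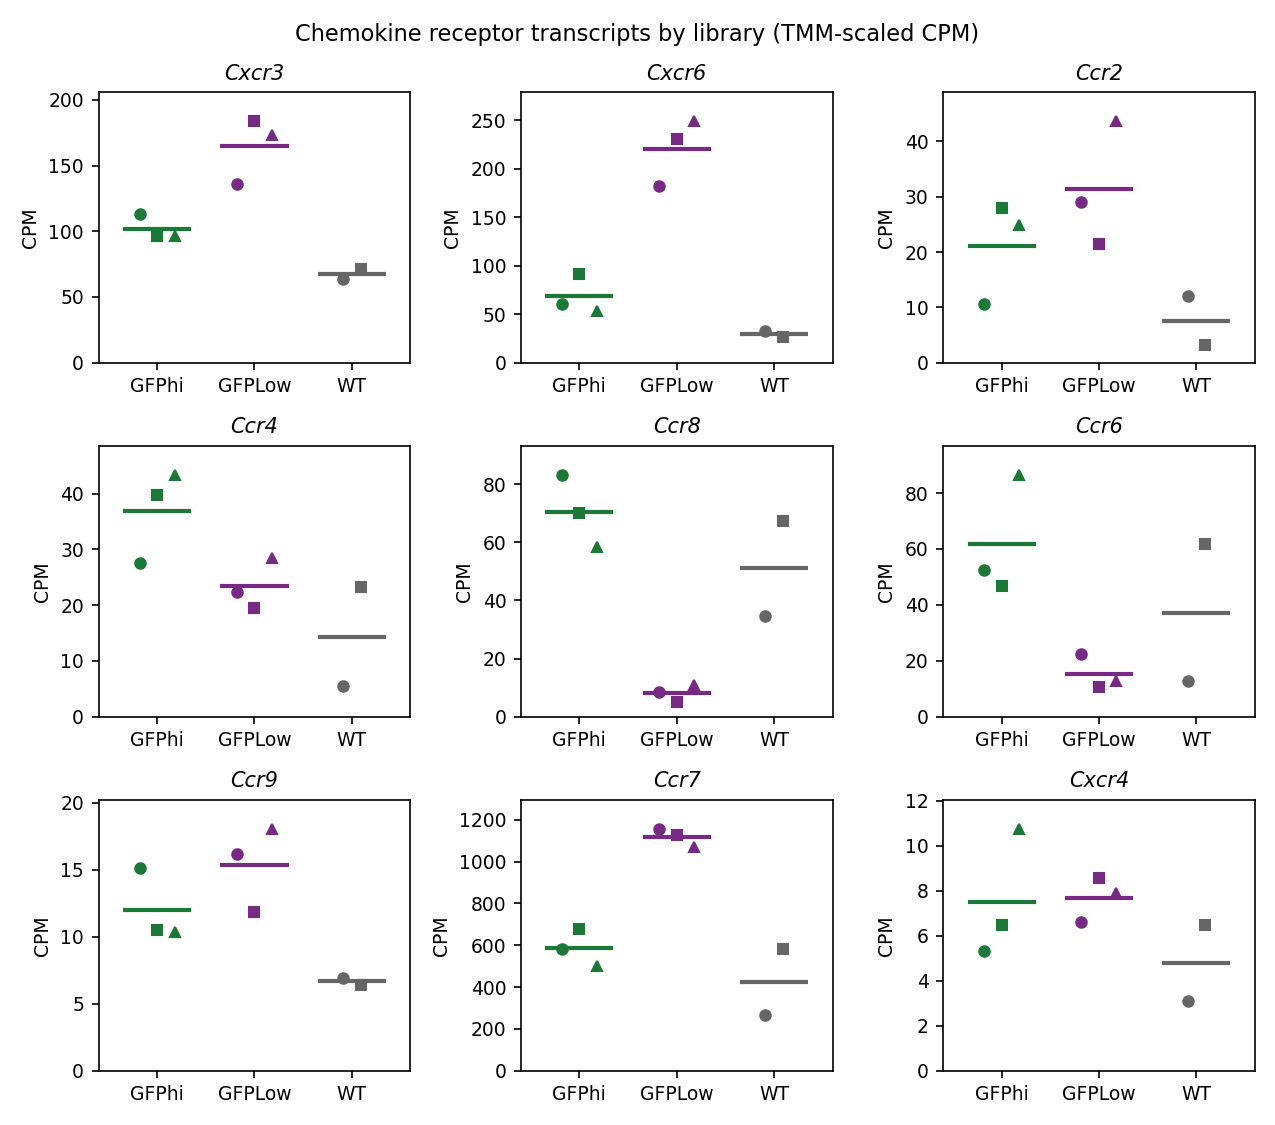
Level of each receptor gene in each library, in TMM-scaled CPM on a linear axis from 0, for GFPhi, GFPLow and WT; circles, squares and triangles are libraries 1, 2 and 3 and bars are group means. Cxcr6 and Ccr7 of all 3 GFPLow libraries lie above every other library, and Ccr8 of all 3 lies below every other library (11.1 CPM or less, against 34.8 CPM or more).

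The promoters of the 3 receptors that passed a test are shown because Ccr8 moved against Cxcr3 and Cxcr6 in GFPLow. Each window runs from 250 bases before to 50 bases after the transcript start in RefSeq on build GRCm38.p6, 5′ to 3′ on the gene's own strand. They cover chrX:101734098-101734397 (minus strand) for Cxcr3, chr9:123806227-123806526 (plus strand) for Cxcr6 and chr9:120091883-120092182 (plus strand) for Ccr8. Capitals mark matches to the motifs searched on both strands.
Cxcr3: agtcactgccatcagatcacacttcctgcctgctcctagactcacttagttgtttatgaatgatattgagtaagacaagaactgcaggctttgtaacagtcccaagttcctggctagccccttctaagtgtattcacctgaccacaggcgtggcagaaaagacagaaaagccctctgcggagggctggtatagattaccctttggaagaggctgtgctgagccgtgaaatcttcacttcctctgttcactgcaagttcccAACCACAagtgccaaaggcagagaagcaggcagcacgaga
Cxcr6: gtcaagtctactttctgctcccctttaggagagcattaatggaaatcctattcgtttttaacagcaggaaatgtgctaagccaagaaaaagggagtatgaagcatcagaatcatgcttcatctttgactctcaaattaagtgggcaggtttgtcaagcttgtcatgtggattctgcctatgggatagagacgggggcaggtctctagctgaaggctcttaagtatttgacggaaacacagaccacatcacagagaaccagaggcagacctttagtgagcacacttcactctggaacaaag
Ccr8: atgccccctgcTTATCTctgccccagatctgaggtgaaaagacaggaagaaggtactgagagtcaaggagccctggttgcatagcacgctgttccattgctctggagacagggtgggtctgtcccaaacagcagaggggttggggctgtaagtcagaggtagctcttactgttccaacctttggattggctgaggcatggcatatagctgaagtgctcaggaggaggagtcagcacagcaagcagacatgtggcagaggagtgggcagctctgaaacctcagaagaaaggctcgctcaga
The letters searched were TCACACC for T-box factors, AGATAA for the factors that include Gata3, CCGGAAG for ETS factors, GGGCGTG for KLF factors and TGTGGTT for RUNX factors, and no 2 matches overlapped. Windows were found for 8 of the 9 receptors (9 windows), all but Ccr7. TGTGGTT lay 10 bases after the start of Cxcr3, on the opposite strand, and is held by 5.27% of the 32851 promoter windows of the table. AGATAA, held by 11.18% of windows, lay in those of Ccr8 (-239 bases from the start), Ccr2 (-97 bases) and 1 of the windows of Ccr6 (-70 bases). TCACACC, held by 3.98% of all windows, was found in none of the 9, and the Cxcr6 window held none of the 5 motifs. These matches describe letters in the windows and are not evidence of binding.

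Cxcr3 (ENSMUSG00000050232, chrX:101731535-101734269, GRCm38), the receptor for the interferon-induced chemokines CXCL9, CXCL10 and CXCL11, was highest in GFPLow. Its level was 113, 96.4 and 96.5 CPM in GFPhi, 136, 184 and 173 CPM in GFPLow, and 63.6 and 71.6 CPM in WT. The 3 groups did not overlap, with WT lowest and GFPhi between. Cxcr3 rose in GFPLow against WT by 1.28 ± 0.21 (2.43-fold, adjusted p = 0.016), and without WT library 1 by 1.21 ± 0.18 (adjusted p = 0.00995). The call was lost without GFPLow library 2 (adjusted p = 0.0753) or GFPLow library 3 (adjusted p = 0.0714). In GFPhi against WT the difference was 0.59 ± 0.20 (adjusted p = 0.348), and 0.51 ± 0.18 (adjusted p = 0.955) without WT library 1. In GFPhi against GFPLow it was -0.69 ± 0.18 (adjusted p = 0.11), which passed in the fit of these 6 libraries alone (adjusted p = 0.00985).

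Cxcr6 (ENSMUSG00000048521, chr9:123806475-123811760), the receptor for the membrane-bound chemokine CXCL16 and a marker of tissue-resident and effector T cells, rose in GFPLow against WT. GFPhi held 60.4, 91.7 and 53.5 CPM, GFPLow 183, 230.5 and 249 CPM, and WT 32.3 and 26.0 CPM. The 3 groups again did not overlap and kept the order GFPLow, GFPhi, WT. The rise in GFPLow against WT was 2.92 ± 0.31 (7.57-fold, adjusted p = 0.00432), and 3.09 ± 0.35 (adjusted p = 0.00295) without WT library 1. In GFPhi, Cxcr6 was lower than in GFPLow by a log2 fold change of -1.69 ± 0.25 (adjusted p = 0.0138), a level 3.22 times as high in GFPLow. This last call was lost, at adjusted p of 0.0666 to 0.0963, when GFPhi library 1, GFPhi library 3, GFPLow library 2 or GFPLow library 3 was left out, and in the fit of the 6 libraries alone it had an adjusted p of 0.00227. GFPhi against WT gave 1.23 ± 0.28 (adjusted p = 0.348), and 1.40 ± 0.32 (adjusted p = 0.911) without WT library 1. Cxcr6 lies inside Fyco1, a gene of the opposite strand with which it shares 0 exon bases, and the strand setting of the counting is not given in the sources used here. Fyco1 was at 49.3, 63.3 and 72.3 CPM in GFPhi, 54.0, 60.5 and 66.2 CPM in GFPLow, and 78.2 and 71.7 CPM in WT, an order unlike that of Cxcr6.

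Natural killer (NK) cells can also carry Cxcr6. The summed level of 5 NK markers (Ncr1, Klrb1c, Klra8, Klrk1, Eomes) was 2.46 to 6.56 CPM in GFPhi, 24.5 to 89.0 CPM in GFPLow, and 1.84 and 6.23 CPM in WT. Eomes is also one of the transcription factors described with the receptors. Of the 4 tested NK markers, Klrk1 and Eomes rose in GFPLow against WT, beside 1.08% of all genes, and kept that direction without WT library 1. Klrk1 and Klrb1c were lower in GFPhi than in GFPLow, beside 0.626% of all genes. Within GFPLow, Ncr1 was at 0, 0 and 7.81 CPM, Klra8 at 0, 0 and 2.79 CPM, Klrb1c at 10.05, 11.1 and 31.4 CPM and Klrk1 at 4.11, 22.7 and 39.5 CPM. The part of these markers in the Cxcr6 values was not tested.

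Ccr2 (ENSMUSG00000049103, chr9:124101950-124113557), the receptor for CCL2, varied more within groups than the receptors described so far. It was at 10.6, 27.9 and 24.8 CPM in GFPhi, 29.1, 21.5 and 43.7 CPM in GFPLow, and 12.0 and 3.22 CPM in WT. GFPhi overlapped both other groups, while GFPLow lay above WT. The difference of GFPLow from WT was 2.05 ± 0.65 (adjusted p = 0.121), and that of GFPhi from WT 1.48 ± 0.64 (adjusted p = 0.363). Without WT library 1 they were 3.29 ± 0.68 (adjusted p = 0.0312) and 2.71 ± 0.65 (adjusted p = 0.911), so the value depends on which WT library is kept. GFPhi against GFPLow gave -0.57 ± 0.54 (adjusted p = 0.922). Monocytes express Ccr2, and the summed level of 6 monocyte and macrophage markers was 10.6, 11.9 and 33.1 CPM in GFPhi, 71.5, 21.3 and 328 CPM in GFPLow, and 29.3 and 38.3 CPM in WT. Lyz2, a lysozyme of myeloid cells, made up 197 CPM of the sum in GFPLow library 3, which also had the highest Ccr2. Csf1r was at 0 in GFPhi library 2, GFPLow library 2 and WT library 1. Its means were 1.92 CPM in GFPhi, 4.01 CPM in GFPLow and 0.509 CPM in WT. Ly6c2, also part of the sum, had means of 9.21 CPM in GFPhi, 55.8 CPM in GFPLow and 13.4 CPM in WT. The part of these markers in the Ccr2 values was not tested.

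Ccr8 (ENSMUSG00000042262, chr9:120092114-120094906), the receptor for CCL1 and a marker of activated Tregs, had the widest separation of the 9 between GFPhi and GFPLow. It was at 83.2, 70.1 and 58.4 CPM in GFPhi, 8.56, 5.20 and 11.1 CPM in GFPLow, and 34.8 and 67.2 CPM in WT. The GFPLow libraries lay below all others, while GFPhi and WT overlapped. Ccr8 was higher in GFPhi than in GFPLow by 3.09 ± 0.37 (8.53-fold, adjusted p = 0.00617), a call kept in each of 19 alternative fits. It fell in GFPLow against WT, with a log2 fold change of -2.62 ± 0.38 (6.17 times as high in WT, adjusted p = 0.0115), and of -3.02 ± 0.33 (adjusted p = 0.00236) without WT library 1. That fall missed the threshold without GFPLow library 1 (adjusted p = 0.0618). GFPhi against WT gave 0.47 ± 0.38 (adjusted p = 0.529), and 0.07 ± 0.36 (adjusted p = 1) without WT library 1. The 5 Treg markers Foxp3, Il2ra, Ctla4, Ikzf2 and Tnfrsf4 moved the same way as Ccr8 in the comparisons with GFPLow. Of these, 5 of 5 were lower in GFPLow than in WT, beside 2.23% of all genes. In GFPhi 5 of 5 were higher than in GFPLow, beside 1.63% of all genes. The directions were the same without WT library 1. The sort gate on GFP and FoxP3 set the direction of Foxp3 in advance, so these markers are not a separate test of Ccr8.

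Ccr4 (ENSMUSG00000047898, chr9:114490316-114504916), the receptor for CCL17 and CCL22, was at 27.5, 39.8 and 43.4 CPM in GFPhi, 22.5, 19.5 and 28.5 CPM in GFPLow, and 5.42 and 23.3 CPM in WT. GFPhi lay above WT, and the other pairs of groups overlapped. Ccr4 passed no test in the edgeR model of all 8 libraries. Its differences were 1.36 ± 0.55 in GFPhi against WT (adjusted p = 0.355) and 0.70 ± 0.54 in GFPLow against WT (adjusted p = 0.418). GFPhi against GFPLow gave 0.65 ± 0.47 (adjusted p = 0.798). WT library 1 held the lowest value, and without it the differences from WT were 0.66 ± 0.30 for GFPhi and 0.02 ± 0.29 for GFPLow.

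Ccr6 (ENSMUSG00000040899, chr17:8236043-8257141), the receptor for CCL20 found on Th17 cells and on part of the Tregs, was at 52.5, 46.7 and 86.5 CPM in GFPhi, 22.3, 10.5 and 12.8 CPM in GFPLow, and 12.8 and 61.7 CPM in WT. GFPhi lay above GFPLow without overlap, and the WT libraries sat at either end. GFPhi against GFPLow gave 2.02 ± 0.57 (adjusted p = 0.15), and the fit of these 6 libraries alone passed the threshold (adjusted p = 0.00749). GFPLow against WT gave -1.29 ± 0.61 (adjusted p = 0.225), which was -2.01 ± 0.42 (adjusted p = 0.032) without WT library 1 and 0.27, the opposite direction, without WT library 2. GFPhi against WT gave 0.73 ± 0.63 (adjusted p = 0.549), and 0.005 ± 0.449 (adjusted p = 1) without WT library 1. Library 3 of GFPhi, with the highest value, is the one of its group that held Xist, and in GFPLow the library that held Xist had 12.8 CPM, between the other two. B cells also express Ccr6. The summed level of 5 B cell markers was 44.6 to 51.7 CPM in GFPhi, 5.59 to 11.8 CPM in GFPLow, and 53.0 and 73.8 CPM in WT, nearly all of it Cd79b in GFPhi and WT, while Ms4a1 was at 0 in all 3 GFPhi libraries.

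Ccr9 (ENSMUSG00000029530, chr9:123678439-123784330), the gut-homing receptor for CCL25, was low in every group, at 15.1, 10.5 and 10.3 CPM in GFPhi, 16.1, 11.8 and 18.0 CPM in GFPLow, and 6.91 and 6.41 CPM in WT. The transgenic groups lay above WT and overlapped each other. None of its tests passed in the edgeR model of all 8 libraries, while DESeq2 called it higher in GFPLow against WT. By edgeR, GFPhi against WT gave 0.85 ± 0.30 (adjusted p = 0.348) and GFPLow against WT 1.20 ± 0.31 (adjusted p = 0.0796). GFPhi against GFPLow gave -0.36 ± 0.26 (adjusted p = 0.81). The differences from WT without WT library 1 were 0.90 ± 0.34 for GFPhi (adjusted p = 0.955) and 1.26 ± 0.35 for GFPLow (adjusted p = 0.0834). The 3 annotated genes that share exon bases with Ccr9 on either strand held no more than 11 counts in a library. Among them AC165425.1 shares 1932 bases, on the opposite strand. How reads on shared bases were counted is not given in the sources used here, so these counts cannot show whether Ccr9 lost reads.

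Ccr7 (ENSMUSG00000037944, chr11:99144196-99155077), the receptor for CCL19 and CCL21 that guides T cells into lymphoid tissue, was the most abundant of the 9. It was at 581, 679.6 and 500.3 CPM in GFPhi, 1156, 1125 and 1072 CPM in GFPLow, and 265 and 582 CPM in WT. The GFPLow libraries lay above all others and close to each other, and WT library 2 lay within GFPhi. GFPhi against GFPLow gave -0.93 ± 0.29 (adjusted p = 0.204), and the fit of these 6 libraries alone passed (adjusted p = 0.00149). GFPLow against WT gave 1.40 ± 0.34 (adjusted p = 0.0722), and 0.95 ± 0.15 (adjusted p = 0.0117) without WT library 1. GFPhi against WT gave 0.47 ± 0.33 (adjusted p = 0.476), and 0.01 ± 0.14 (adjusted p = 1) without WT library 1.

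Cxcr4 (ENSMUSG00000045382, chr1:128588199-128592293), the receptor for CXCL12, was among the least abundant, at 5.34, 6.46 and 10.7 CPM in GFPhi, 6.61, 8.55 and 7.88 CPM in GFPLow, and 3.11 and 6.47 CPM in WT. GFPLow lay just above WT, by 6.61 to 6.47 CPM at the nearest libraries, and GFPhi overlapped both. Its differences were 0.65 ± 0.44 in GFPhi against WT (adjusted p = 0.467), 0.68 ± 0.44 in GFPLow against WT (adjusted p = 0.345) and -0.03 ± 0.38 in GFPhi against GFPLow (adjusted p = 1). Its differences from WT were smaller without WT library 1, at 0.22 ± 0.41 for GFPhi (adjusted p = 1) and 0.26 ± 0.41 for GFPLow (adjusted p = 0.814).

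**Figure D2:**
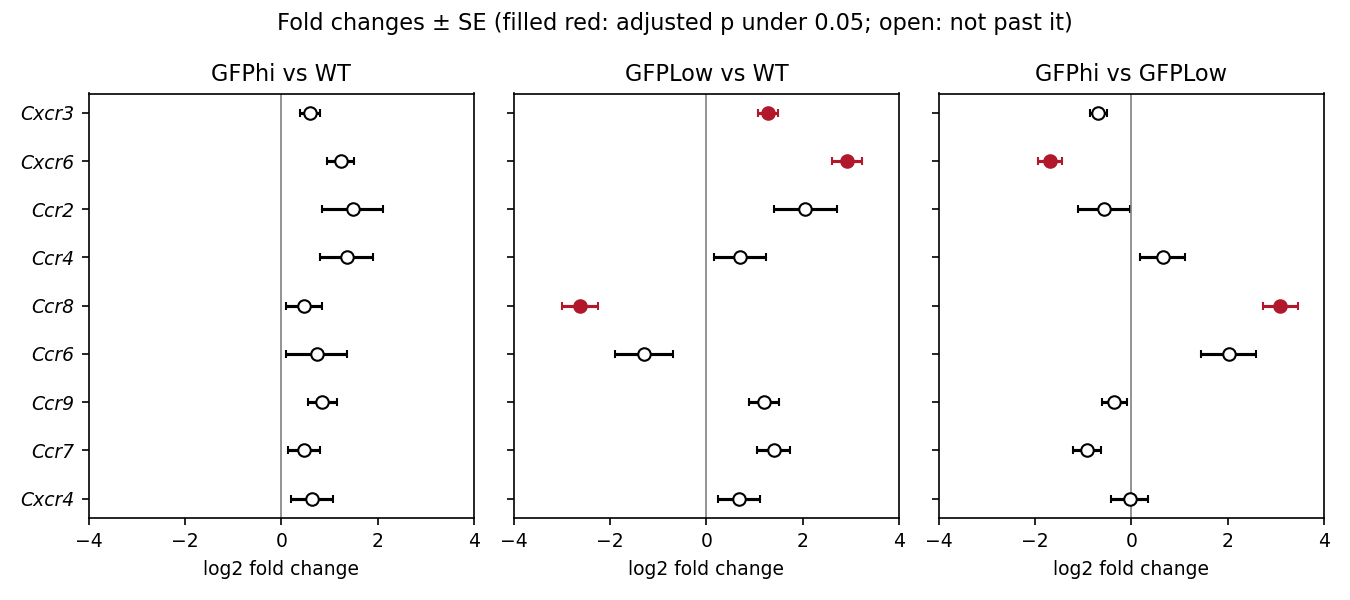
Log2 fold change of each receptor gene ± SE in GFPhi against WT, GFPLow against WT and GFPhi against GFPLow, from the edgeR model of all 8 libraries; filled red points have an adjusted p under 0.05 and open points do not. All 9 values of GFPhi against WT are above 0 and none is filled, whereas Ccr8 (-2.62) and Cxcr6 (2.92) stand at opposite ends in GFPLow against WT.

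As a set, the 9 receptors had positive differences in 9 of 9 cases in GFPhi against WT, where 53.4% of all genes did, with a median of 0.73 against 0.077 over all genes. None passed by edgeR, 5 of the 9 had an unadjusted p under 0.05 (13.7% of all genes), limma voom called 0, and DESeq2 called Cxcr3 and Cxcr6 in a comparison where it gave an adjusted p to only 2039 genes, of which it called 15.7%, and to 3 of the 9 receptors. Libraries of GFPhi lay above those of WT for 4 receptors (Cxcr3, Cxcr6, Ccr4, Ccr9), beside 15.6% of all genes that lay above and 28.1% without overlap in either direction. Without WT library 1 the median of the 9 was 0.51, and single values ran down to 0.005 (with voom, Ccr6 turned to -0.08). GFPLow against WT had 7 of 9 positive differences (50.7% of all genes), with a median of 1.20 against 0.018 over all genes, and 7 did not overlap, 6 above WT and Ccr8 below it, beside 40.3% of all genes (21.1% above and 19.2% below). In GFPhi against GFPLow 3 of 9 were positive (51.1% of all genes), with a median of -0.36 against 0.011 over all genes, and 5 did not overlap, 2 above and 3 below GFPLow, beside 30% of all genes (16% above and 14% below). These 2 comparisons share the GFPLow libraries, and those against WT share the WT libraries, so their values are not independent of each other. On chromosome 9 lie 5 of the 9 genes (Ccr4, Ccr8, Ccr9, Cxcr6 and Ccr2), among them Cxcr6 and Ccr8, which moved in opposite directions.

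Levels of different genes were compared as CPM per kilobase of the union of annotated exons. In GFPhi, Ccr7 came first with 297 ± 45.4 CPM per kb (SD, n = 3), followed by Ccr8 (60.1 ± 10.5), Cxcr3 (58.9 ± 5.50), Cxcr6 (35.5 ± 10.5), Ccr6 (26.7 ± 9.25), Ccr4 (11.9 ± 2.69), Cxcr4 (4.16 ± 1.58), Ccr2 (3.12 ± 1.36) and Ccr9 (1.17 ± 0.268). Within this order Ccr8 and Cxcr3, Cxcr6 and Ccr6, and Cxcr4 and Ccr2 did not differ beyond their SD. In GFPLow, Ccr7 (565 ± 21.4) was followed by Cxcr6 (114 ± 17.8) and Cxcr3 (95.1 ± 14.4), and then at a distance by Ccr4 (7.60 ± 1.48), Ccr8 (7.04 ± 2.50), Ccr6 (6.56 ± 2.70), Ccr2 (4.65 ± 1.67), Cxcr4 (4.25 ± 0.545) and Ccr9 (1.50 ± 0.309). The SDs of Cxcr6 and Cxcr3 overlapped, although Cxcr6 ranked above Cxcr3 in each of the 3 libraries, and those of the neighbours among Ccr4, Ccr8, Ccr6, Ccr2 and Cxcr4 overlapped too. In WT the 2 libraries averaged 214 for Ccr7, 43.4 for Ccr8, 39.1 for Cxcr3, 16.1 for Ccr6, 15.1 for Cxcr6, 4.65 for Ccr4, 2.65 for Cxcr4, 1.13 for Ccr2 and 0.649 for Ccr9, all in CPM per kb. The order of Ccr8 and Cxcr3, that of Ccr6 and Cxcr6, and that of Ccr2 with Ccr4, Cxcr4 and Ccr9 differed between the WT libraries, with Ccr2 sixth in library 1 and the lowest of the 9 in library 2. Ccr7 ranked first in all 8 libraries. The exon unions of Ccr2 (6.76 kb) and Ccr9 (10.26 kb) are longer than those of the other 7 (1.175 to 3.093 kb), which lowers their values per kb if the shorter transcripts are the ones expressed.

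**Figure D3:**
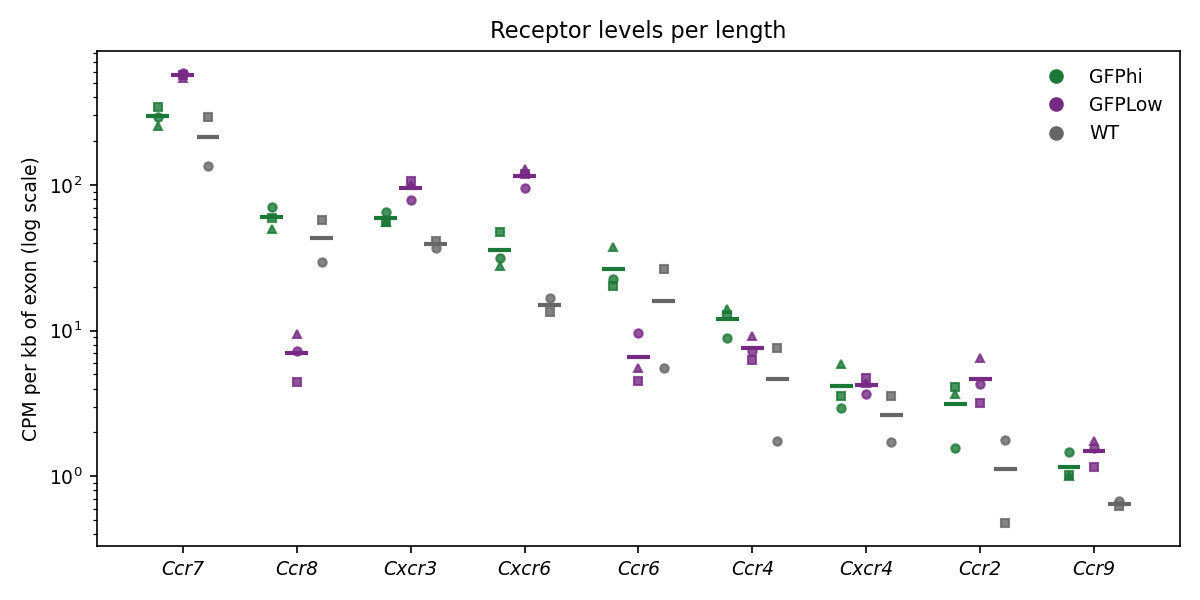
CPM per kilobase of exon on a logarithmic axis for each receptor gene, ordered by the GFPhi mean; points are libraries (circles, squares and triangles for libraries 1, 2 and 3) and bars are group means of GFPhi, GFPLow and WT. Cxcr6 stands second in GFPLow (114 CPM per kb) and Ccr8 second in GFPhi (60.1 CPM per kb).

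The ratio of Cxcr6 to Ccr8, both per kb, put the opposite moves of these genes in 1 value per library. It was 0.442, 0.796 and 0.558 in GFPhi, 13.0, 27.0 and 13.7 in GFPLow, and 0.565 and 0.236 in WT. The GFPLow libraries were the only ones with more Cxcr6 than Ccr8, and GFPhi and WT overlapped. Summed over the 9 receptors, the level was 948.7, 1069 and 884 CPM in GFPhi, 1580.3, 1616 and 1617 CPM in GFPLow, and 436 and 848 CPM in WT. Ccr7 made up 61.2%, 63.6% and 56.6% of this sum in GFPhi, 73.1%, 69.6% and 66.3% in GFPLow, and 60.8% and 68.6% in WT.

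Of 24 chemokine ligand genes, 12 had enough counts to be tested. None rose and 3 fell in GFPLow against WT (Ccl1, Ccl20 and Cxcl10), beside 1.08% of all genes that rose and 2.23% that fell. Between GFPhi and GFPLow 1 was higher in GFPhi (Ccl20) and 1 lower (Ccl5), beside 1.63% and 0.626% of all genes. In GFPhi against WT 0 passed by edgeR or by limma voom, and 1 of 12 had an unadjusted p under 0.05, beside 13.7% of all genes. DESeq2 also called 0 there, but it gave an adjusted p to only 2039 genes, and genes without one could not pass. By limma voom (0.382% of all genes) and in the fit of only the libraries compared (0.187%), none passed in GFPLow against WT. The medians of the 12 were -0.31 in GFPhi against WT, -0.69 in GFPLow against WT and 0.38 in GFPhi against GFPLow. Without WT library 1, only Ccl20 of the 3 that fell still passed in GFPLow against WT and Ccl5 rose (5.88% of all genes called), while 4 of 15 tested ligands were higher in GFPhi than in GFPLow (Ccl1, Ccl20, Cxcl10 and Mif) and 1 was lower (Ccl5), beside 9.66% of all genes called.

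Ccl20, the ligand of CCR6, was at 1.24, 9.69 and 3.74 CPM in GFPhi, 0 in all 3 GFPLow libraries, and 6.16 and 1.36 CPM in WT. Its mean was at least 252-fold higher in GFPhi than in GFPLow (adjusted p = 0.0331). In WT the mean was at least 194-fold higher than in GFPLow (adjusted p = 0.0325). Both bounds are against a floor of 3 counts over the GFPLow group, which covers counting error only. Without GFPhi library 2, the highest of its group, the first bound was 128-fold, and without WT library 1 the second was 70.1-fold. The lowest GFPhi library alone gave a bound of 63.7-fold. Ccl20 and its receptor Ccr6 were thus both lowest on average in GFPLow. Ccl1, a ligand of CCR8, was at 34.7, 12.8 and 1.67 CPM in GFPhi, 0.729, 0.102 and 0 CPM in GFPLow, and 53.4 and 23.1 CPM in WT. It fell in GFPLow against WT (-7.08 ± 1.53, adjusted p = 0.0499; without WT library 1 -6.35 ± 1.56, adjusted p = 0.0633) and did not pass in GFPhi against GFPLow (5.86 ± 1.43, adjusted p = 0.0966), so Ccl1, like Ccr8, was lowest in GFPLow.

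Cxcl10, a ligand of CXCR3, was at 41.4, 37.7 and 18.7 CPM in GFPhi, 7.25, 7.13 and 7.11 CPM in GFPLow, and 85.1 and 20.6 CPM in WT. It fell in GFPLow against WT (-2.88 ± 0.56, adjusted p = 0.0337), the group where Cxcr3 rose, and missed the threshold without WT library 1 (-1.51 ± 0.36, adjusted p = 0.053). Ccl5, a chemokine made by effector T cells and NK cells, was at 16.1, 27.7 and 21.3 CPM in GFPhi, 160.3, 158 and 154 CPM in GFPLow, and 122 and 20.6 CPM in WT. It was lower in GFPhi than in GFPLow (-2.86 ± 0.57, adjusted p = 0.0458), and the 2 WT libraries stood far apart. It rose in GFPLow against WT without WT library 1, by 2.94 ± 0.29 (adjusted p = 0.00169). Mif, a cytokine that also binds CXCR4, was at 391, 404 and 372 CPM in GFPhi, 279, 271 and 307 CPM in GFPLow, and 1015 and 353 CPM in WT. It passed no test in the edgeR model of all 8 libraries. The fit of the GFPhi and GFPLow libraries alone and limma voom called Mif higher in GFPhi than in GFPLow. DESeq2 called it lower in GFPLow than in WT. Cxcl16, the ligand of CXCR6, reached no more than 2.45 CPM in any library.

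**Figure D4:**
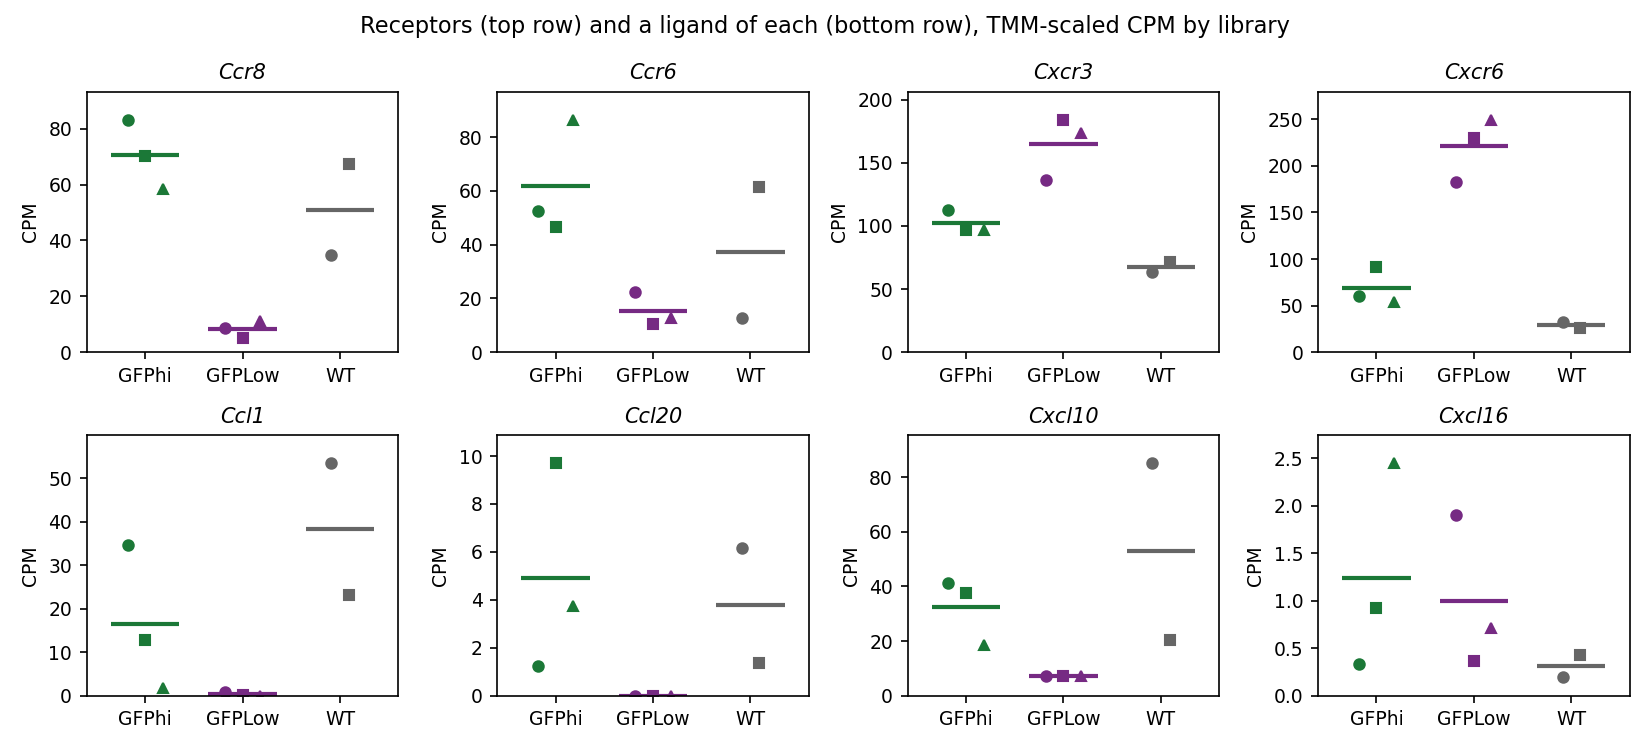
Ccr8, Ccr6, Cxcr3 and Cxcr6 (top row) above Ccl1, Ccl20, Cxcl10 and Cxcl16, a ligand of each (bottom row), in TMM-scaled CPM per library on linear axes from 0, for GFPhi, GFPLow and WT; circles, squares and triangles are libraries 1, 2 and 3 and bars are means. Ccr8 with Ccl1 and Ccr6 with Ccl20 are both lowest on average in GFPLow, whereas Cxcr3 is highest there (136 to 184 CPM) and Cxcl10 lowest (7.11 to 7.25 CPM).

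A list of 18 further receptors of migrating cells held the other chemokine receptors, atypical receptors and the S1P and oxysterol receptors, of which 13 were tested. Of these 1 rose and 1 fell in GFPLow against WT, beside 1.08% and 2.23% of all genes. Between GFPhi and GFPLow 0 were higher in GFPhi and 1 was lower, beside 1.63% and 0.626% of all genes. Between GFPhi and WT 0 passed by edgeR or limma voom, with 0 at an unadjusted p under 0.05, beside 13.7% of all genes. DESeq2 also called 0 there, but it gave an adjusted p to only 2039 genes, and genes without one could not pass. By limma voom (0.382% of all genes) and in the fit of only the libraries compared (0.187%), none passed in GFPLow against WT. The medians of the 13 were 0.47 in GFPhi against WT, 0.95 in GFPLow against WT and -0.53 in GFPhi against GFPLow. S1pr4, an S1P receptor of lymphocytes, was at 38.2, 38.1 and 44.6 CPM in GFPhi, 65.4, 73.4 and 64.6 CPM in GFPLow, and 21.8 and 34.4 CPM in WT, and rose in GFPLow against WT (1.27 ± 0.24, adjusted p = 0.03), also without WT library 1 (0.98 ± 0.15, adjusted p = 0.00937). S1pr1, which draws T cells out of lymphoid organs, had 346, 419.9 and 370.3 CPM in GFPhi, 679, 642 and 584 CPM in GFPLow, and 199.6 and 348 CPM in WT, and GFPLow against WT missed the threshold (1.21 ± 0.27, adjusted p = 0.0534), which it passed without WT library 1 (0.87 ± 0.13, adjusted p = 0.00744). As for Ccr7, the GFPLow libraries lay above all others for these genes.

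Ccrl2, an atypical receptor that binds chemerin, had 21.2, 15.4 and 19.9 CPM in GFPhi, 3.25, 2.68 and 7.98 CPM in GFPLow, and 21.0 and 19.1 CPM in WT, and fell in GFPLow against WT (-2.11 ± 0.45, adjusted p = 0.0475), as Ccr8 did. Cxcr1 had 0, 0.0376 and 0 CPM in GFPhi, 3.16, 1.58 and 0.833 CPM in GFPLow, and was not counted in WT, with 0 CPM in either library; it was lower in GFPhi than in GFPLow (adjusted p = 0.0494). Gpr183, the oxysterol receptor that positions T cells in the spleen, gave -0.76 ± 0.21 in GFPhi against GFPLow (adjusted p = 0.146). GFPLow against WT gave 0.48 ± 0.24 for Gpr183, and 0.79 ± 0.18 without WT library 1. The fall of Ccrl2 was -2.04 ± 0.51 without WT library 1 and no longer passed. In the fit of the GFPhi and GFPLow libraries alone, 11 of these receptors were tested. Of the 11, 1 was higher and 4 were lower in GFPhi, in a fit that called 12.3% of all genes.

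Of 25 genes that carry the signal of these receptors, 24 were tested. In GFPLow against WT 1 rose (Rasgrp2) and 1 fell (Gnaq), beside 1.08% and 2.23% of all genes. Gnaq was higher and Rasgrp2 lower in GFPhi than in GFPLow, beside 1.63% and 0.626% of all genes. Between GFPhi and WT 0 passed by edgeR or limma voom, with 2 of 24 at an unadjusted p under 0.05, beside 13.7% of all genes. DESeq2 also called 0 there, but it gave an adjusted p to only 2039 genes, and genes without one could not pass. When WT library 1 was left out, 5 rose (Dock2, Gnai2, Grk6, Pik3r5 and Rasgrp2) and Gnaq fell in GFPLow against WT (5.88% of all genes called), and 2 were higher and 6 lower in GFPhi than in GFPLow (9.66%). By limma voom (0.382% of all genes) and in the fit of only the libraries compared (0.187%), none passed in GFPLow against WT. The medians were 0.25 in GFPhi against WT, 0.49 in GFPLow against WT and -0.06 in GFPhi against GFPLow. Rasgrp2, which activates the integrin regulator Rap1, had 131, 121 and 115 CPM in GFPhi, 223, 222 and 229.7 CPM in GFPLow, and 107 and 108 CPM in WT. It rose in GFPLow against WT by 1.07 ± 0.17 (adjusted p = 0.0146; without WT library 1 1.06 ± 0.10, adjusted p = 0.00127), and was lower in GFPhi than in GFPLow by -0.88 ± 0.15 (adjusted p = 0.0206). Gnaq, the alpha subunit of a G protein that activates phospholipase C, had 14.3, 13.2 and 10.9 CPM in GFPhi, 4.0, 3.09 and 4.30 CPM in GFPLow, and 30.5 and 13.8 CPM in WT. Its log2 fold changes were -2.54 ± 0.37 in GFPLow against WT (adjusted p = 0.0115), -1.85 ± 0.27 there without WT library 1 (adjusted p = 0.00734), and 1.75 ± 0.34 in GFPhi against GFPLow (adjusted p = 0.0384). Gnaq was thus lowest in GFPLow, as Ccr8 was, and Rasgrp2 highest there, as Cxcr3 was. Plcb3, a phospholipase C, missed the threshold in GFPhi against GFPLow (1.28 ± 0.27, adjusted p = 0.0535), as did the kinase adaptor Pik3r5 (1.63 ± 0.38, adjusted p = 0.0642) in GFPLow against WT with both WT libraries. Grk6, a kinase that silences chemokine receptors, gave -0.67 ± 0.15 in GFPhi against GFPLow (adjusted p = 0.0713).

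All 20 transcription factor genes that the literature ties to these receptors were tested. In GFPLow against WT 4 rose (Satb1, Tbx21, Eomes and Runx3) and 2 fell (Ahr and Batf), beside 1.08% and 2.23% of all genes. When WT library 1 was left out (5.88% of all genes called), Runx3 was not called (1.52 ± 0.40, adjusted p = 0.0699), Id2 also rose and Gata3 also fell. In the fit of only the libraries compared (0.187% of all genes) Eomes and Tbx21 passed, and by limma voom (0.382%) Satb1 alone. In GFPhi against GFPLow 1 was higher (Ahr) and 3 lower (Satb1, Tbx21 and Id2), beside 1.63% and 0.626% of all genes. In GFPhi against WT 0 passed by edgeR or limma voom, and 2 of 20 had an unadjusted p under 0.05, beside 13.7% of all genes. DESeq2 also called 0 there, but it gave an adjusted p to only 2039 genes, and genes without one could not pass. The medians were 0.09 in GFPhi against WT, 0.23 in GFPLow against WT and -0.015 in GFPhi against GFPLow. In the fit of the GFPhi and GFPLow libraries alone, 6 were higher and 6 lower in GFPhi, in a fit that called 12.3% of all genes.

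Tbx21 encodes T-bet, the type 1 factor known to drive Cxcr3. It had 6.07, 7.57 and 4.48 CPM in GFPhi, 17.5, 15.3 and 18.1 CPM in GFPLow, and 1.59 and 1.78 CPM in WT, the same order of groups as Cxcr3 and Cxcr6, without overlap. It rose in GFPLow against WT by 3.33 ± 0.34 (adjusted p = 0.00379; without WT library 1 3.26 ± 0.39, adjusted p = 0.00334), and GFPhi against GFPLow gave -1.49 ± 0.27 (adjusted p = 0.0295). Eomes, its relative, rose in GFPLow against WT by 4.93 ± 0.66 (adjusted p = 0.0083; without WT library 1 5.02 ± 0.87, adjusted p = 0.0158), at 3.81, 2.37 and 1.07 CPM in GFPhi, 10.4, 7.40 and 7.52 CPM in GFPLow, and 0.292 and 0.259 CPM in WT. Satb1, a chromatin organizer that FOXP3 represses, had 137, 149.8 and 141 CPM in GFPhi, 404, 401 and 379 CPM in GFPLow, and 137 and 132 CPM in WT. It rose in GFPLow against WT by 1.56 ± 0.17 (adjusted p = 0.00436; without WT library 1 1.59 ± 0.09, adjusted p = 0.00015), and GFPhi against GFPLow gave -1.47 ± 0.15 (adjusted p = 0.00338). GFPhi and WT held Satb1 at nearly the same level. Tbx21 gave 1.84 ± 0.32 in GFPhi against WT and was not called (adjusted p = 0.348), in a comparison where 0% of all genes passed.

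Ahr, the aryl hydrocarbon receptor, had 21.7, 17.8 and 18.4 CPM in GFPhi, 7.55, 7.88 and 5.71 CPM in GFPLow, and 20.5 and 17.0 CPM in WT. It fell in GFPLow against WT (-1.41 ± 0.25, adjusted p = 0.0219; without WT library 1 -1.26 ± 0.23, adjusted p = 0.0199) and was higher in GFPhi than in GFPLow (1.46 ± 0.23, adjusted p = 0.0156), the directions of Ccr8. Id2, a factor of effector lymphocytes, had 149, 165 and 155 CPM in GFPhi, 404, 462 and 533 CPM in GFPLow, and 267 and 120.3 CPM in WT, and was lower in GFPhi than in GFPLow (-1.58 ± 0.29, adjusted p = 0.0335). It rose in GFPLow against WT without WT library 1, by 1.96 ± 0.16 (adjusted p = 0.000753). Gata3, the type 2 factor, had 93.1, 82.3 and 84.9 CPM in GFPhi, 53.5, 58.6 and 54.1 CPM in GFPLow, and 86.9 and 84.9 CPM in WT, and GFPhi against GFPLow missed the threshold (0.65 ± 0.14, adjusted p = 0.0673).

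**Figure D5:**
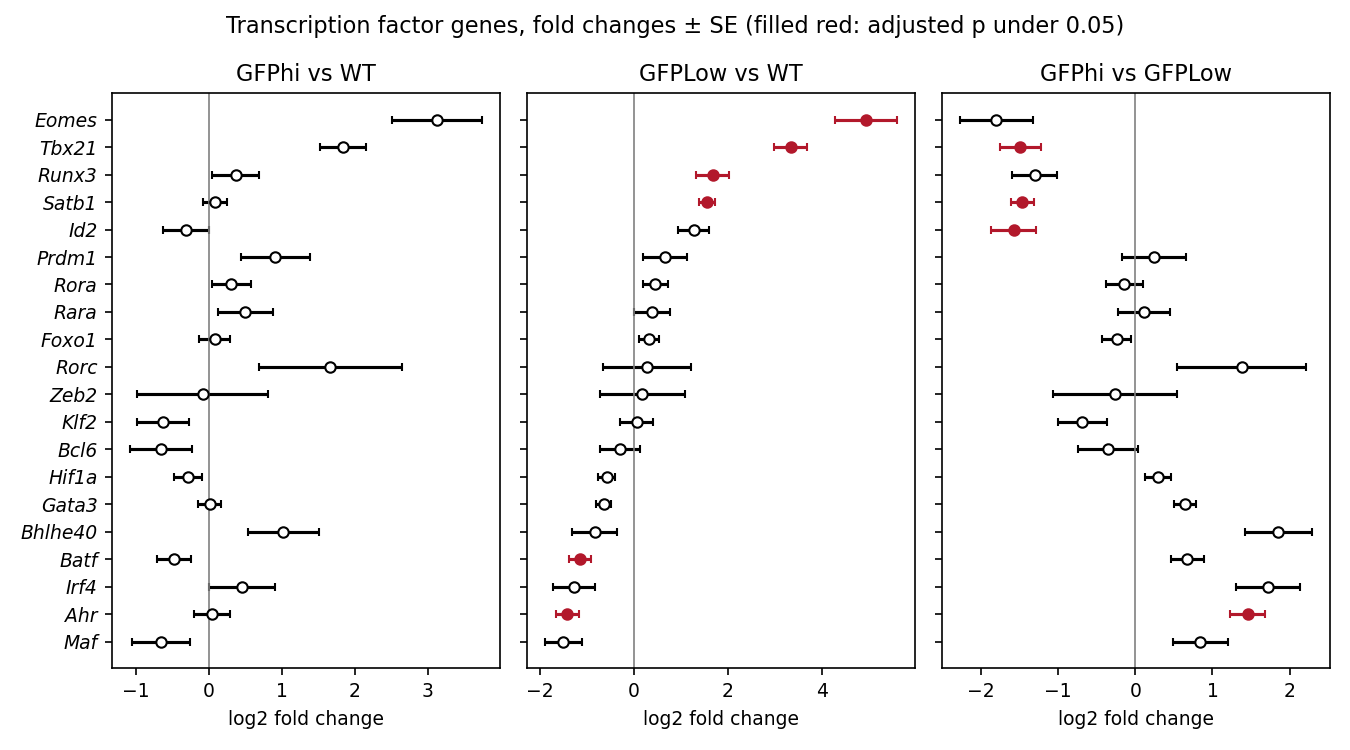
Log2 fold change ± SE of 20 transcription factor genes in GFPhi against WT, GFPLow against WT and GFPhi against GFPLow, ordered by the value in GFPLow against WT; filled red points have an adjusted p under 0.05 in the edgeR model of all 8 libraries. Tbx21 (3.33) and Eomes (4.93) lie farthest to the right in GFPLow against WT.

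For each receptor that passed a test, the 3 genes with the most similar profile were found among 8346 genes with a mean log2 CPM above 3. Likeness was the root mean square difference of log2 CPM, centred on the mean of each gene, over the 8 libraries. Closest to Cxcr3 (SD over the libraries 0.519) were Pik3cd (difference 0.154), a lymphocyte PI3 kinase subunit, Rtel1 (0.154), a DNA helicase, and Rcbtb2 (0.174). Pik3cd had 200.5, 203 and 188 CPM in GFPhi, 289.8, 311 and 307 CPM in GFPLow, and 140.3 and 164 CPM in WT. Closest to Cxcr6 (SD 1.19) were Mboat1 (0.379), a lysophospholipid acyltransferase, Lyst (0.381), a regulator of lysosomes, and Slc26a11 (0.437). Mboat1 had 28.0, 30.5 and 21.9 CPM in GFPhi, 53.9, 54.5 and 57.3 CPM in GFPLow, and 13.2 and 11.8 CPM in WT. Closest to Ccr8 (SD 1.48) were Swap70 (0.186), a signalling protein of B cells and mast cells that binds actin, Cd74 (0.291), the invariant chain of MHC class II, and Cish (0.299), a feedback inhibitor of cytokine signalling. Swap70 had 81.3, 81.0 and 72.3 CPM in GFPhi, 10.3, 6.64 and 11.8 CPM in GFPLow, and 54.5 and 81.7 CPM in WT. Its lower value in WT library 1, shared with Ccr8, is part of the likeness by which it was picked. These profiles share the same libraries and depths and are a description.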

How the data were processed

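The authors deposited 1 table of raw counts per Ensembl gene for 8 libraries. Tools listed, per the submitters' processing notes, were HISAT2 2.1.0, HTSeq 0.11.2, SAMtools 1.9, R 4.0 and edgeR, with build GRCm38; their roles, annotation and strand setting were not given in the sources used here. Of 54837 identifiers, 54808 matched GENCODE vM21, which gave symbols, coordinates and exon lengths.

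Genes were kept by edgeR's filterByExpr over the 3 groups (18851) with TMM factors. In edgeR 4.0.16, a quasi-likelihood model of the 8 libraries with a mean for each group (robust estimation, 5 residual degrees of freedom) was tested two-sided, with Benjamini-Hochberg adjustment over all genes and a threshold of 0.05; the steps were tested on simulated data. Likeness used log2 CPM with a prior count of 2. Software was DESeq2 1.42.0 and limma 3.58.1 under R 4.3.3, and matplotlib 3.10.9 with pandas 2.3.3 under Python 3.11.15. Alternatives were 2 other scalings, 2 other filters, DESeq2, limma voom with quality weights, no robust estimation, only the libraries compared, a replicate block, each library left out, and, added after the data were seen, DESeq2 and voom without WT library 1.

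The 9 receptors and all lists were chosen with earlier results of these data known. All 9 are named, and of each of the 4 lists the 5 genes with the smallest adjusted p over the 3 comparisons, beside those called, Gata3 and Cxcl16, which were named after their values were seen. Reads without molecular identifiers are not independent molecules, so limits from counts cover counting error only. Replicate numbers were not treated as pairing, because the labels do not say whether libraries of the same number share a mouse. Same-numbered GFPhi and GFPLow libraries deviated from their group means with r = 0.067, 0.066 and 0.149 over 18851 genes. For libraries of unlike number r was lower, from -0.112 to 0.052, so these values do not exclude pairing. Protein sequences were not analysed here. Single values of 2 genes of these lists are not reported here.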

Additional observations from a re-analysis of the deposited data

How the results depend on the processing

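Among refits of single receptor differences, 435 kept direction and side of the threshold, 52 gained the call, 14 lost it and 6 reversed. Upper quartile scaling moved the median of all genes to -0.12 in GFPLow against WT (0.018 by TMM) and to -0.05 in GFPhi against WT (0.077), and called the same receptors. Leaving out 1 library at a time gave 0 to 8234 genes and 0 to 5 receptors in GFPhi against WT, 213 to 9002 genes and 2 to 7 receptors in GFPLow against WT, and 105 to 1984 genes and 1 to 5 receptors in GFPhi against GFPLow; the highest counts against WT came without WT library 2.

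In GFPhi against WT, where 0 genes passed, no filter on low counts gave 1 gene, DESeq2 320 genes and 2 receptors, and DESeq2 without WT library 1 70 genes and 2 receptors. In GFPLow against WT (623 genes, 3 receptors), DESeq2 gave 3243 and 6, limma voom 72 and 0, only the libraries compared 33 and 1, and, without WT library 1, DESeq2 2444 and 7 and voom 1418 and 5. In GFPhi against GFPLow (426 genes, 2 receptors), DESeq2 gave 1375 and 5, limma voom 2271 and 5, only the libraries compared 2105 and 5, and, without WT library 1, DESeq2 3242 and 6 and voom 2105 and 5. The voom quality weights were 0.133 and 0.181 for the WT libraries and 1.619 to 2.298 for the others. With the replicate number as a block, 0 genes and 0 receptors passed in GFPhi against WT, 158 and 1 (Cxcr6) in GFPLow against WT, and 1752 and 5 in GFPhi against GFPLow; the numbers are not known to pair samples, although each GFPhi and GFPLow library correlated best with its own number.

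In GFPLow against WT, Cxcr3 missed the threshold without GFPLow library 2 (adjusted p = 0.0753) or 3 (0.0714), with only the libraries compared (0.131), the block (0.0979) and voom (0.487). Ccr8 there missed it without GFPLow library 1 (0.0618), with only the libraries compared (0.0993), the block (0.0836) and voom (0.105), and Cxcr6 missed it with voom (0.247). Reversed directions, all in differences that pass no test in the model of all 8 libraries, were Ccr6 in GFPhi against WT (-0.08, voom without WT library 1), Ccr6 (0.27 without WT replicate 2, the highest when 1 library is left out, the lowest being -2.01) and Ccr4 (-0.018, voom without WT library 1) in GFPLow against WT, and Cxcr4 in GFPhi against GFPLow (0.16, 0.07 and 0.05 without GFPhi replicate 1, GFPhi replicate 2 or GFPLow replicate 2, within a leave-one-out range of -0.38 to 0.16). The cause was not tested.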
